A study of Homo sapiens with 6 samples.

Results

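The p53 target genes were followed on 6 microarrays of RPMI-8402 cells, a T-cell line long established from a human acute lymphoblastic leukaemia. The list held 37 gene symbols known as targets of the transcription factor p53, and its members were taken by symbol, not by a threshold on their values. A probe carried 36 of the 37 symbols, and 33 of these genes could be tested, out of 14461 genes tested in all. All cells were transduced with lentivirus, cultured for 48 h and sorted for the EGFP that the vectors carry. The control cells received a control hairpin, other cells a short hairpin RNA against GATA3 (shGATA3), and the remaining cells a hairpin (shTCF1) against TCF7, which encodes the protein TCF1. Each group had 2 arrays, which the study describes as independent experiments. The labels do not say whether these were separate cultures, so p values measure only the spread between these samples. The methods name 1 construct for the control and 1 for GATA3, so effects of a single hairpin sequence and of its target cannot be told apart.

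p53 is a DNA-binding transcription factor that is held at a low level in unstressed cells by MDM2, a ubiquitin ligase that marks it for destruction, and by the related protein MDM4, which covers its activating domain. DNA damage and oncogene signals release it, and it then raises genes that stop the cell cycle, repair DNA, retune metabolism or start apoptosis. MDM2 is itself a target, which closes a feedback loop. T-lineage cells are known for undergoing apoptosis readily when p53 is activated.

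p53 binds pairs of a 10-base half-site, and the stretches before the start sites of the genes on which the results turn are shown for this reason. Promoters of 28 members were found by symbol in the RefSeq table (GRCh38.p14), each a window of 300 bases, from 250 before to 50 after the start. The half-site consensus, searched on both strands, was present in 4 of the 28 windows (14.3%), those of AEN, FDXR, PLK2 and RPS27L, and in 1786 of all 27305 windows (6.54%). No member window held a pair of exact half-sites at most 13 bases apart, and 8 of all windows did (0.0293%). The search allowed no mismatch. Pairs in which a half-site departs from the consensus were not searched, so their absence cannot be read from this. A letter match describes the sequence only, and no binding was measured here. The first pair of lines below gives the 250 bases before PLK2 (chr5:58460087-58460336, minus strand), whose level moved most among the members, and before its relative PLK3 (chr1:44800127-44800376, plus strand), 5′ to 3′, with the half-site match at positions -132 to -123 of PLK2 in capitals. PLK3 held no match.
PLK2: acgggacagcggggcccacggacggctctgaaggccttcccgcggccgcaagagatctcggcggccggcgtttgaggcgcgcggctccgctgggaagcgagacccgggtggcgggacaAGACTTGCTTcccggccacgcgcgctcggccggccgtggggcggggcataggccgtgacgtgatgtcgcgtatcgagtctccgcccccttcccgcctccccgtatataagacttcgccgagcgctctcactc
PLK3: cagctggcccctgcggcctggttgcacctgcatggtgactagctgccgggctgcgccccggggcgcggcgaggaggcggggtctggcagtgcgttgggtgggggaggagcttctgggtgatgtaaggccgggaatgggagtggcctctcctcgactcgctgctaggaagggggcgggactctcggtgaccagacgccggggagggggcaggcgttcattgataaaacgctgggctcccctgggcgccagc

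MDM4 (chr1:204516156-204516405, plus strand) and CCNG1 (chr5:163437321-163437570, plus strand) are shown because both were lower on the arrays labelled shTCF1 than on control arrays. Capitals mark the GATA-type motif AGATAA or its complement TTATCT, at -192 to -187 in MDM4 and at -147 to -142 in CCNG1. Other GATA-type variants were not searched or marked, such as the TGATAA in the PLK3 stretch above. This motif was present in 3 of the 28 member windows, also in that of CASP8, against 10.5% of all windows.
MDM4: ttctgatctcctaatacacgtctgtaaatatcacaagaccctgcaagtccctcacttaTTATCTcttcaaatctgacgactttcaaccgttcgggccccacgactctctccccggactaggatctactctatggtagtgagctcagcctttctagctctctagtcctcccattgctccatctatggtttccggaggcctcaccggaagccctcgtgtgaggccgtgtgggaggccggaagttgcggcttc
CCNG1: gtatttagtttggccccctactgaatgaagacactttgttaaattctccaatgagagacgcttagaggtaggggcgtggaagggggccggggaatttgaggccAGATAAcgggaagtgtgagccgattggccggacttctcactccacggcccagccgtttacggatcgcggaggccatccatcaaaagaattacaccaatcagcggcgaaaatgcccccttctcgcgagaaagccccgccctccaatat
The TCF-type motif CTTTGA or its complement TCAAAG was present in 2 of the 28 windows (7.14%), those of EDA2R and FAS, against 13.1% of all windows.

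For comparison, 60 bases around the half-site of the other members that held one are given for AEN (chr15:88621280-88621339, plus strand), FDXR (chr17:74872995-74873054, minus strand) and RPS27L (chr15:63157502-63157561, minus strand), with the match in capitals. AEN and FDXR held the same 10 letters, at -34 to -25 and at -11 to -2, and RPS27L another match at -59 to -50.
AEN: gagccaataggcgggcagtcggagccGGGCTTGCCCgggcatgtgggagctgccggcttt
FDXR: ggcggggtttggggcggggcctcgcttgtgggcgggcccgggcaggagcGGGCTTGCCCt
RPS27L: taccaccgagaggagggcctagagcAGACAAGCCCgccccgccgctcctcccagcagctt

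The labels were first set against the targeted genes. The normalized log2 intensity of GATA3 was 9.54 and 9.56 on the control arrays, 9.46 and 9.55 where the label was shGATA3, and 9.76 and 9.90 where it was shTCF1. GATA3 was thus not lower on the arrays labelled shGATA3, with a log2 difference from control of -0.05 (95% interval -0.31 to 0.21; limma, adjusted p = 0.795). TCF7 was 13.96 and 13.91 on control arrays, 14.26 and 14.27 on the shGATA3-labelled arrays and 12.58 and 12.68 on those labelled shTCF1, a fall of 2.47-fold under shTCF1 (limma, adjusted p = 0.00394). All statements on shGATA3 therefore refer to arrays by their label. Of the 10 T-lineage markers, 9 to 10 were well above background on both arrays of each group, while EPCAM, CDH1, COL3A1, CD22 and CSF1R were not on any array. The summed intensity of the T-lineage markers before normalization was 93500 to 105000 on control arrays, 87300 to 106000 with shGATA3 and 57200 to 77900 with shTCF1, and its part in the results was not tested. These sums were not scaled for the brightness of the arrays, given below. CD3D alone was 43200 and 22500 on the shTCF1 arrays, so the sums do not describe the marker set evenly. All 6 arrays lay on 1 slide and were scanned once. The control arrays lay in one part of that slide and both hairpin groups in the other, and control arrays were brighter before normalization (75th percentile of intensity 270 and 287, against 165 to 179 on the hairpin arrays), so position and control against hairpin cannot be told apart. In RNA from whole sorted populations, fewer cells of a type and less RNA per cell cannot be told apart.

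Of the 37 members, 32 were well above background on all 6 arrays and FAS on 5. TNFRSF10A, a TRAIL receptor, SPATA18, a gene of mitochondrial quality control, and CMBL, a hydrolase, were not well above background on any array, and TRIM22P1 had no probe. Each gene was represented by its brightest probe, and 10 members had a further tested probe. A gene is called here when its Benjamini-Hochberg adjusted p, over all 31131 probes tested, fell below 0.05 in limma. Levels are normalized log2 intensities, and a level of one gene is not comparable with that of another because probes differ.

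Most p53 target genes did not change in a common direction. Of the 33 tested members, 4 were called on the arrays labelled shGATA3 against control, 2 higher (PLK2 and PLK3) and 2 lower (CCNG1 and SUSD6), which is 12.1% of members against 6.92% of all genes (2.77% higher and 4.16% lower). On the arrays labelled shTCF1, 5 members were called, BTG2 higher and MDM4, CCNG1, PLK2 and PERP lower, which is 15.2% against 16.3% of all genes (6.26% higher and 10.0% lower). Directly compared, 4 members (MDM4, PLK2, PLK3 and ZMAT3) were higher with shGATA3 than with shTCF1 and 0 were lower, 12.1% against 6.60% of all genes, of which 3.78% were higher and 2.83% lower. The share of members called was close to the background for shTCF1, and in the other comparisons it rests on 4 genes. Two-sided unadjusted p values below 0.05 were found for 10, 12 and 11 members. The share of all genes at that unadjusted threshold was not computed. No excess can be read from these counts, or from the unadjusted counts given below by role and list.

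The median log2 difference of members from control was -0.0141 with shGATA3 and -0.0909 with shTCF1, beside -0.0333 and -0.0483 over all 14461 genes. Between the hairpin groups it was 0.11, beside 0.0035 over all genes. There 23 members lay above 0 and 10 below, and the share of all genes above 0 was not computed. The median absolute difference between the hairpin groups was 0.241 for members and 0.17 over all genes. Against control it was 0.17 for members with shGATA3 and 0.183 with shTCF1, beside 0.192 and 0.229 over all genes. The groups did not overlap for 20 members with shGATA3 against control (60.6%, against 63.0% of all genes), for 24 with shTCF1 against control (72.7%, against 69.2%) and for 18 between the hairpin groups (54.5%, against 53.4%). The same 2 control arrays served both hairpin groups, so their differences from control are not independent.

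**Figure D1:**
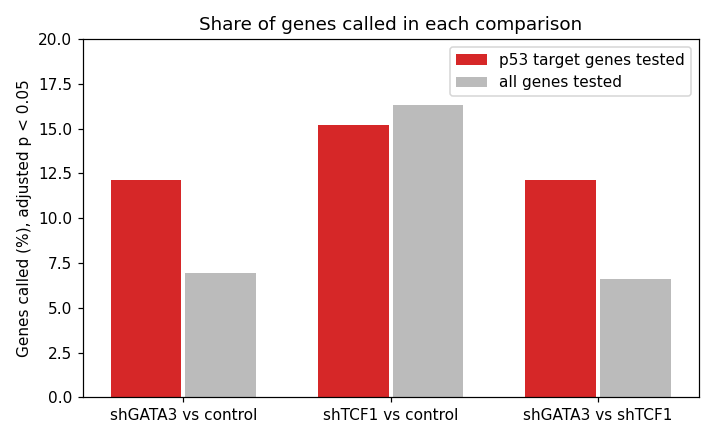
Share of genes called (y axis, percent, adjusted p below 0.05 in limma) in each of the 3 comparisons, for the 33 tested p53 target genes (red bars) and for all 14461 genes tested (grey bars). With shTCF1 against control the members' share is 15.2% and that of all genes 16.3%; in the other comparisons the members' share is 12.1%, or 4 genes.

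The calls rest on few arrays. With 2 arrays a group an exact two-sided permutation test of 1 gene cannot give a p below 0.333, so each call depends on a spread pooled by limma from all probes. When 1 array was left out, which assumes that the lone array left in a group varies like the others, the 4 members called with shGATA3 against control became 0 without either control array or either array labelled shGATA3. The 5 called with shTCF1 against control became 1 without control replicate 1, 3 without control replicate 2 and 2 without either shTCF1 array. The 4 called between the hairpin groups became 1 without shGATA3 replicate 2 or either shTCF1 array, and 2 without any other array. In the authors' deposited matrix, several columns of which did not follow the array they are named for, 0 members were called in each comparison, and CCNG1 had the opposite sign against control, at 1.52 and 1.47. Without the columns for control replicate 2 and shGATA3 replicate 2, which followed no array closely, CCNG1 was lower than control, at -0.87 and -0.84.

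**Figure D2:**
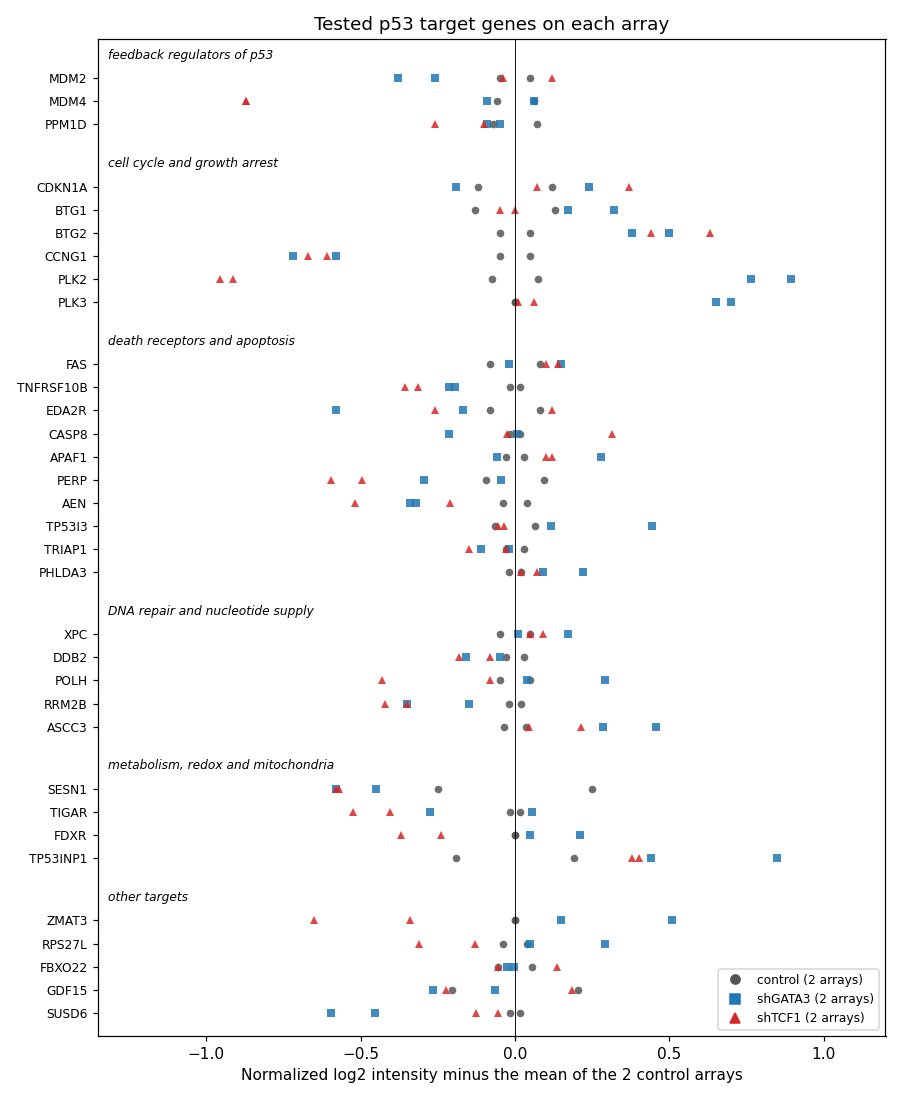
Normalized log2 intensity of the 33 tested p53 target genes on each of the 6 arrays (x axis, minus the mean of the 2 control arrays of that gene), ordered by role (y axis). Grey circles are control, blue squares shGATA3 and red triangles shTCF1 arrays. PLK2 lies to the right of control on both shGATA3 arrays and to the left on both shTCF1 arrays, CCNG1 lies to the left on all 4 hairpin arrays, and most other members stay within 0.5 of control.

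The members grouped as feedback regulators of p53 were MDM2, MDM4 and PPM1D. Of these 3, too few for a reading of the group, MDM4 alone was called. It was called with shTCF1 against control and between the hairpin groups, where 16.3% and 6.60% of all genes were called. Its level was 10.40 and 10.28 on control arrays, 10.25 and 10.40 on the shGATA3-labelled arrays, and 9.47 on both arrays labelled shTCF1. Both shTCF1 arrays thus lay below all 4 others, among which the groups overlapped. MDM4 was 1.83-fold lower with shTCF1 than in control cells (log2 difference -0.87, SE 0.108, 95% interval -1.14 to -0.61; limma, adjusted p = 0.00909) and 1.81-fold higher with shGATA3 than with shTCF1 (adjusted p = 0.0112 in limma). Against control with shGATA3 it differed by -0.01 (interval -0.28 to 0.25). A second, dimmer probe of MDM4 was called in the same 2 comparisons, at -0.63 and 0.69. The fall with shTCF1 was called in 5 of 6 fits that left out 1 array, with an adjusted p of 0.059 without control replicate 1. The direct difference was called in 3 of 6, with adjusted p up to 0.0582, and not without shGATA3 replicate 2 or either shTCF1 array.

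MDM2, the ligase of the feedback loop, was not called in any comparison. It was 8.72 and 8.62 on control arrays, 8.29 and 8.41 on those labelled shGATA3 and 8.63 and 8.79 on those labelled shTCF1. The shGATA3 arrays lay below the others, with a log2 difference from control of -0.32 (SE 0.113, 95% interval -0.60 to -0.05; limma, adjusted p = 0.143). Its dimmest tested probe went the other way, at 0.52 with shGATA3 and 0.39 with shTCF1 (limma, adjusted p = 0.0606 for the first), and a further probe lay at -0.04 and 0.07. No direction can be given for MDM2 from these probes. PPM1D, a phosphatase that removes activating phosphates from p53 and its kinases, differed from control by -0.07 with shGATA3 (0.04 by a second probe) and by -0.18 with shTCF1 (interval -0.46 to 0.09).

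Genes of cell cycle arrest held most of the calls, all on PLK2, PLK3, CCNG1 and BTG2, some of them counted in more than 1 comparison. Of 6 such members, 3 were called with shGATA3 against control, 3 with shTCF1 against control and 2 between the hairpin groups, beside 6.92%, 16.3% and 6.60% of all genes. The comparisons share arrays, and the members were chosen with earlier results of these data known. With 6 genes, no trait of the group can be read from these counts. CDKN1A, which encodes the cyclin-dependent kinase inhibitor p21 and is the best known arrest gene of the pathway, was not among them. It was dim, at 4.93 and 4.69 on control arrays, 5.05 and 4.62 on those labelled shGATA3 and 5.18 and 4.88 on those labelled shTCF1. The 3 groups overlapped, and the log2 difference from control was 0.03 with shGATA3 (SE 0.191, 95% interval -0.44 to 0.50) and 0.22 with shTCF1 (SE 0.191, interval -0.24 to 0.69), so that a rise of up to 0.69 cannot be told from none.

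PLK2, a Polo-like kinase that responds to stress and whose promoter half-site is printed above, differed between all 3 groups. Its level was 7.56 and 7.71 on control arrays, 8.53 and 8.40 on the shGATA3-labelled arrays, and 6.72 and 6.68 on those labelled shTCF1. The arrays formed 3 levels without overlap, shGATA3 above control and shTCF1 below. PLK2 was 1.78-fold higher with shGATA3 than in control cells (log2 difference 0.83, SE 0.11, 95% interval 0.56 to 1.1; limma, adjusted p = 0.0152). With shTCF1 it was 1.91-fold lower than control (log2 difference -0.93, SE 0.11, interval -1.20 to -0.66; limma, adjusted p = 0.00829). Between the hairpin groups, which lay in the same part of the slide, the difference was 3.39-fold (log2 1.76, SE 0.11, interval 1.49 to 2.03; limma, adjusted p = 0.00132). The direct difference and the fall with shTCF1 were called in all 6 fits that left out 1 array (highest adjusted p 0.0154 and 0.0443 in limma). Under normexp background correction the fall with shTCF1 was -0.57 and still called. The rise with shGATA3 was lost without either control or either shGATA3 array (up to 0.0988) and was called in the other 2.

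PLK3, a second Polo-like kinase of the stress response, rose only on the arrays labelled shGATA3. It was 10.31 on both control arrays, 10.96 and 11.01 on the shGATA3-labelled arrays and 10.32 and 10.37 on those labelled shTCF1. The shGATA3 arrays stood above the other 4, which lay within 0.06 of each other. PLK3 was 1.59-fold higher than control (log2 difference 0.67, SE 0.095, 95% interval 0.44 to 0.90; limma, adjusted p = 0.0184) and 1.55-fold higher than with shTCF1 (log2 difference 0.64, SE 0.095; limma, adjusted p = 0.0194). With shTCF1 against control it differed by 0.04 (interval -0.20 to 0.27). The rise over control was lost when any 1 of the 4 arrays compared was left out (adjusted p up to 0.116), and the direct difference in all 6 such fits (up to 0.0812).

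CCNG1, which encodes cyclin G1, a partner of the phosphatase PP2A that acts on MDM2, fell in both hairpin groups. It was 9.67 and 9.77 on control arrays, 9.14 and 9.0 on the shGATA3-labelled arrays and 9.05 and 9.11 on those labelled shTCF1. All 4 hairpin arrays lay below both control arrays, and the hairpin groups overlapped. The fall was 1.57-fold with shGATA3 (log2 difference -0.65, SE 0.106, 95% interval -0.91 to -0.39; limma, adjusted p = 0.0266) and 1.56-fold with shTCF1 (log2 difference -0.64, SE 0.106; limma, adjusted p = 0.0169), and the hairpin groups differed by -0.01 (interval -0.27 to 0.25). A second probe of CCNG1 lay at -0.50 with shGATA3 (not called, adjusted p = 0.0852 in limma) and at -0.60 with shTCF1 (called, adjusted p = 0.0353 in limma). Each of the calls of the brightest probe was lost when any 1 of the 4 arrays compared was left out, with adjusted p up to 0.125 and 0.0908. Control against hairpin is also the contrast that cannot be told apart from position on the slide.

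BTG2 and BTG1 encode antiproliferative proteins that bind the CCR4-NOT deadenylase. BTG2 was 11.82 and 11.92 on control arrays, 12.37 and 12.25 on the shGATA3-labelled arrays and 12.31 and 12.50 on those labelled shTCF1. All 4 hairpin arrays lay above control and overlapped each other. BTG2 rose 1.45-fold with shTCF1 (log2 difference 0.54, SE 0.116, 95% interval 0.25 to 0.82; limma, adjusted p = 0.0319). With shGATA3 it differed by 0.44 (SE 0.116, interval 0.16 to 0.73) and was not called (limma, adjusted p = 0.0801). The hairpin groups differed by -0.10 (interval -0.38 to 0.19). The rise with shTCF1 was lost when any 1 of the 4 arrays compared was left out (adjusted p up to 0.16). BTG1 differed by 0.24 with shGATA3 (interval -0.07 to 0.56) and by -0.02 with shTCF1, neither called.

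**Figure D3:**
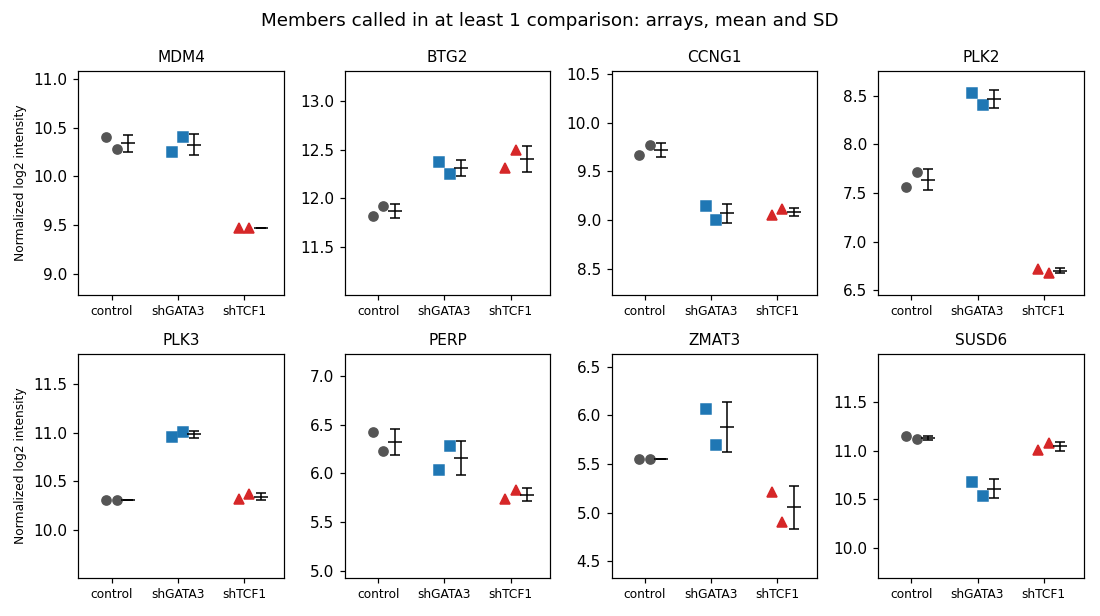
Normalized log2 intensity (y axis, a separate window of equal height for each gene) of the 8 members called in at least 1 comparison, on the control, shGATA3 and shTCF1 arrays (x axis). Points are arrays, and the bars beside them give mean and SD of the 2 arrays of a group. PLK2 forms 3 separate levels, MDM4 is low only on the shTCF1 arrays, PLK3 is high only on the shGATA3 arrays, and CCNG1 is low and BTG2 high on all 4 hairpin arrays.

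Of 10 tested members that act in apoptosis, 0 were called in limma with shGATA3 against control (1 at an unadjusted p below 0.05), PERP alone with shTCF1 against control (3 unadjusted) and 0 between the hairpin groups (1 unadjusted), beside 6.92%, 16.3% and 6.60% of all genes. With 10 genes the counts of calls are near the background. PERP, a tetraspan membrane protein of desmosomes that takes part in p53-driven death, was 6.42 and 6.23 on control arrays, 6.03 and 6.28 on the shGATA3-labelled arrays and 5.73 and 5.83 on those labelled shTCF1. The shTCF1 arrays lay below the other 4, and control and shGATA3 arrays overlapped. PERP was 1.46-fold lower with shTCF1 than in control cells (log2 difference -0.54, SE 0.131, 95% interval -0.87 to -0.22; limma, adjusted p = 0.0418). It was not called under any other scaling of the scanner values, with a difference of -0.18 under normexp background correction, nor when any 1 of the 4 arrays compared was left out (adjusted p up to 0.196).

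The receptors that start death from outside the cell differed by at most 0.37 from control by their brightest probes. TNFRSF10B, a TRAIL receptor, was 9.93 and 9.90 on control arrays, 9.72 and 9.70 on those labelled shGATA3 and 9.60 and 9.56 on those labelled shTCF1. The groups did not overlap, but the log2 difference from control was -0.21 (SE 0.094) with shGATA3 and -0.34 (SE 0.094, 95% interval -0.57 to -0.11) with shTCF1, with adjusted p of 0.224 and 0.0589 in limma. FAS, the receptor of FAS ligand, was dim, and its brightest probe differed by 0.12 with shTCF1 (interval -0.17 to 0.40), whereas a second, dimmer probe was called at 0.68 (limma, adjusted p = 0.0199). That probe was well above background on 1 of 2 control, 1 of 2 shGATA3 and both shTCF1 arrays, so it entered the test only through the group where it was high, and its call is no support for a rise. EDA2R, a receptor for ectodysplasin A2, lay at 5.43 and 5.59 on control arrays and 5.34 and 4.93 on those labelled shGATA3, a difference of -0.37 with a wide interval of -0.85 to 0.10.

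Among the intracellular genes of death, AEN, a nuclease whose half-site is printed above, lay at 8.43 and 8.35 on control arrays and between 7.87 and 8.18 on the 4 hairpin arrays. All hairpin arrays were thus below control, with differences of -0.33 and -0.37 that were not called (limma, adjusted p = 0.184 and 0.106), and a second probe lay nearer to control at -0.14 and -0.03. CASP8, the initiator caspase of death receptors, and APAF1, the scaffold of the apoptosome, differed from control by -0.10 and 0.11 with shGATA3 and by 0.14 and 0.11 with shTCF1. TP53I3, a quinone oxidoreductase, differed by 0.28 with shGATA3 (interval -0.06 to 0.62) and by -0.05 with shTCF1. TRIAP1, an inhibitor of apoptosis, and PHLDA3, which competes with AKT for membrane lipids, differed by no more than 0.16 in either comparison with control.

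**Figure D4:**
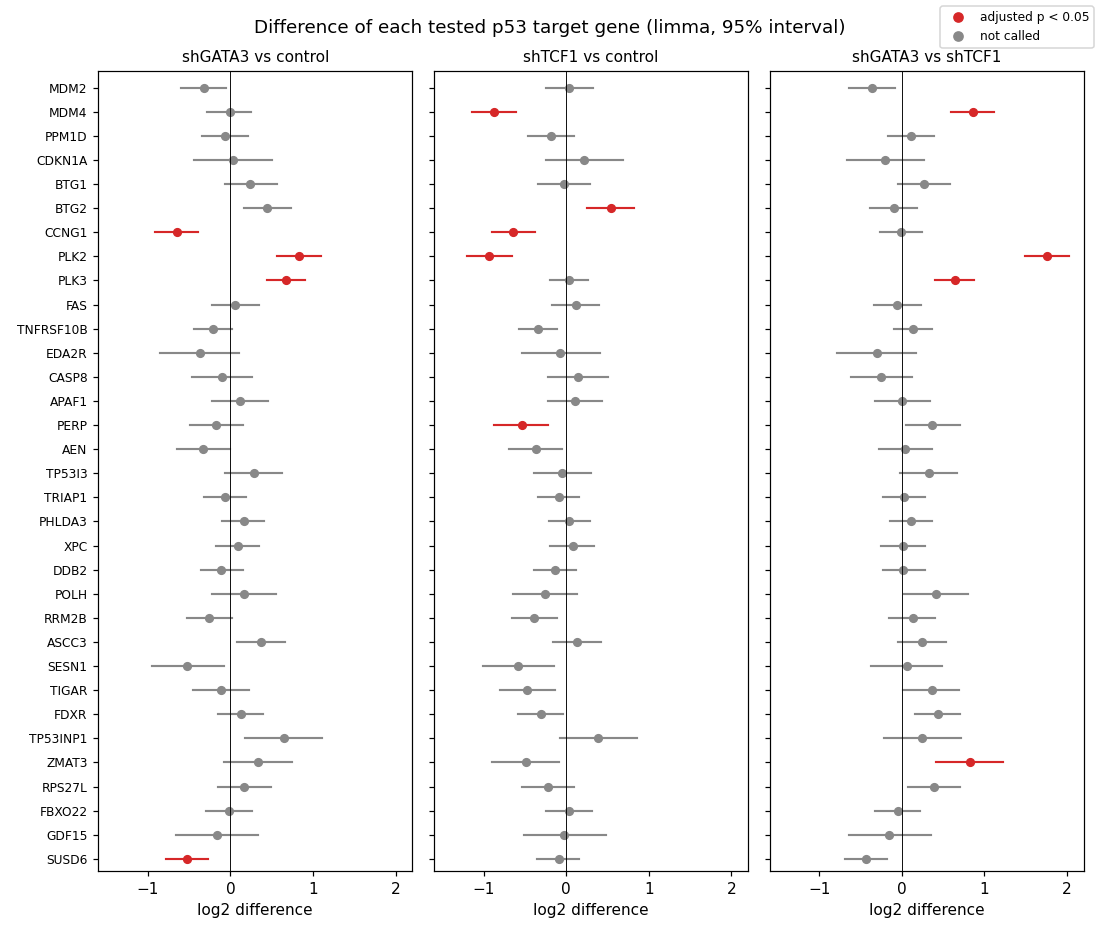
Log2 difference of each of the 33 tested p53 target genes (points) with its 95% interval from limma (lines), in a panel for each comparison. Red marks an adjusted p below 0.05 and grey the rest. The largest difference is that of PLK2 between the hairpin groups, at 1.76, and CDKN1A, FAS, CASP8, APAF1 and GDF15 cross 0 in all 3 panels.

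Genes of DNA repair and nucleotide supply gave 0 calls in each comparison in limma, with 1 of the 5 members at an unadjusted p below 0.05 each time, beside calls on 6.92%, 16.3% and 6.60% of all genes. With 5 genes a count of 0 is near that background. DDB2 and XPC, which find damaged bases for nucleotide excision repair, differed from control by -0.11 and 0.09 with shGATA3 and by -0.13 and 0.08 with shTCF1, with intervals that included 0. A second, dimmer probe of DDB2 lay lower, at -0.33 with shGATA3 (interval -0.69 to 0.02) and at -0.41 with shTCF1 (interval -0.76 to -0.06), and was not called (limma, adjusted p = 0.208 and 0.102). RRM2B, the ribonucleotide reductase subunit that p53 induces, was 5.48 and 5.44 on control arrays, 5.11 and 5.31 on those labelled shGATA3 and 5.04 and 5.11 on those labelled shTCF1. All hairpin arrays lay below control, at -0.26 (limma, adjusted p = 0.21) and -0.39 (limma, adjusted p = 0.0651). POLH, a polymerase that copies past ultraviolet lesions, differed by 0.17 and -0.25 from control and by 0.42 between the hairpin groups (interval 0.03 to 0.80; limma, adjusted p = 0.182). ASCC3, a helicase used in the repair of alkylated DNA, differed by 0.37 with shGATA3 (interval 0.08 to 0.66; limma, adjusted p = 0.118) and by 0.13 with shTCF1.

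The 4 tested genes of metabolism and redox gave 0 calls in limma, with 2, 3 and 2 at an unadjusted p below 0.05 in the 3 comparisons, and with 4 genes a count of 0 is near the background of 6.92%, 16.3% and 6.60%. SESN1, a sestrin that restrains mTORC1, was 7.21 and 6.71 on control arrays, 6.51 and 6.38 on those labelled shGATA3 and 6.38 and 6.39 on those labelled shTCF1. Its control arrays differed by more than any pair of hairpin arrays, and the differences of -0.52 and -0.58 (SE 0.176) were not called (limma, adjusted p = 0.135 and 0.0733). TIGAR, a phosphatase that turns sugar away from glycolysis, was 5.91 and 5.94 on control arrays, 5.98 and 5.65 with shGATA3 and 5.52 and 5.40 with shTCF1. It was lowest on the shTCF1 arrays, at -0.47 from control (interval -0.80 to -0.13; limma, adjusted p = 0.0682).

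FDXR, a mitochondrial reductase that feeds electrons to ferredoxin and carries a half-site in its promoter, was 12.02 on both control arrays, 12.23 and 12.07 on those labelled shGATA3 and 11.65 and 11.78 on those labelled shTCF1. The hairpin groups lay on either side of control, at 0.13 and -0.31, and differed by 0.44 (SE 0.111, 95% interval 0.16 to 0.71), which was not called (limma, adjusted p = 0.0813). TP53INP1, a stress protein that acts in autophagy and cell death, was 7.73 and 8.11 on control arrays, 8.77 and 8.36 on those labelled shGATA3 and 8.30 and 8.32 on those labelled shTCF1. All hairpin arrays were above control, at 0.65 (interval 0.18 to 1.11; limma, adjusted p = 0.101) and 0.39 (adjusted p = 0.2 in limma), and a second, dimmer probe lay at 0.17 and -0.19, so its probes disagree in sign with shTCF1.

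Among the remaining members, ZMAT3 and SUSD6 were each called once. ZMAT3, an RNA-binding zinc finger protein, was 5.55 on both control arrays, 6.06 and 5.70 on the shGATA3-labelled arrays and 5.21 and 4.90 on those labelled shTCF1. The arrays formed 3 levels without overlap in the same order as for PLK2. Neither difference from control was called (0.33, limma, adjusted p = 0.27, and -0.49, limma, adjusted p = 0.0936), and the hairpin groups differed 1.77-fold (log2 0.82, SE 0.167, 95% interval 0.41 to 1.23; limma, adjusted p = 0.0463). The call was lost in all 6 fits without 1 array, with adjusted p from 0.0692 to 0.155. Under 75th percentile scaling the adjusted p was 0.0518, and under normexp background correction the difference was 0.34.

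SUSD6, a transmembrane protein of the DNA damage response, was 11.15 and 11.12 on control arrays, 10.68 and 10.54 on the shGATA3-labelled arrays and 11.01 and 11.08 on those labelled shTCF1. The shGATA3 arrays lay below the other 4. SUSD6 was 1.44-fold lower with shGATA3 than in control cells (log2 difference -0.53, SE 0.104, 95% interval -0.78 to -0.27; limma, adjusted p = 0.0421), and the call was lost in all 6 fits without 1 array (0.0667 to 0.212) and under 75th percentile scaling (0.0537). With shTCF1 it differed from control by -0.09 (interval -0.35 to 0.16), and between the hairpin groups by -0.43 (limma, adjusted p = 0.072).

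The other 3 members of this group were not called. RPS27L, a paralogue of a ribosomal protein, was 12.80 and 12.88 on control arrays, 12.89 and 13.13 on those labelled shGATA3 and 12.53 and 12.71 on those labelled shTCF1, and the groups did not overlap. Its differences from control were 0.17 and -0.22, and the hairpin groups differed by 0.39 (interval 0.07 to 0.70; limma, adjusted p = 0.148). FBXO22, a substrate receptor of a ubiquitin ligase, differed by -0.02 and 0.03 from control. GDF15, a secreted stress cytokine, differed by -0.16 and -0.02, with intervals as wide as -0.66 to 0.33.

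Upstream of the targets, 26 regulators of p53 were tested. Of these, 0 were called with shGATA3 against control in limma (5 at an unadjusted p below 0.05), 4 with shTCF1 against control (15.4%, against 16.3% of all genes) and 0 between the hairpin groups (4 unadjusted). Lower with shTCF1 were ATM, the kinase that activates p53 after DNA breaks, at -0.74 (limma, adjusted p = 0.0107), and USP7, which removes ubiquitin from MDM2 and p53, at -0.69 (limma, adjusted p = 0.0439). USP7 was 9.03 and 9.18 on control arrays and 8.19 and 8.65 on those labelled shTCF1. Higher with shTCF1 were CDKN2A, whose ARF product inhibits MDM2, at 0.73 (limma, adjusted p = 0.0243), and PPP1R13B, a cofactor that steers p53 to apoptosis genes, at 0.71 (limma, adjusted p = 0.0154). Which CDKN2A transcript the probe reads was not tested, so a rise of ARF cannot be read from it. Fits without 1 array and further probes are not given for these regulators. Their median log2 difference was 0.004 with shGATA3, -0.0319 with shTCF1 and -0.0305 between the hairpin groups.

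A further list held 36 other p53 targets, of which 32 were tested. With shGATA3 against control 1 was called (3.12%), with shTCF1 against control 5 (15.6%) and between the hairpin groups 3 (9.38%), beside 6.92%, 16.3% and 6.60% of all genes. The 5 and the 3 include ORAI3, which entered the test only through the group where it was high (below). No excess over the background is read from either share. DRAM1, a lysosomal membrane protein of autophagy, was 7.16 and 7.02 on control arrays, 8.02 and 8.15 on the shGATA3-labelled arrays and 6.43 and 6.40 on those labelled shTCF1. Like PLK2 it formed 3 levels without overlap, shGATA3 above control by 1.00 (limma, adjusted p = 0.00939) and shTCF1 below by 0.67 (fold 1.59; limma, adjusted p = 0.0159). The hairpin groups differed 3.19-fold in DRAM1 (log2 1.67, SE 0.109; limma, adjusted p = 0.00148).

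With shTCF1 against control, the lysosomal fucosidase FUCA1 fell to a log2 difference of -0.46 and the nucleic acid sensor TLR3 to -0.70, whereas the growth factor TGFA rose by 0.50, with adjusted p from 0.0259 to 0.0489 in limma. Between the hairpin groups, GADD45A, a growth arrest protein of the stress response, was higher with shGATA3 by 0.53 (limma, adjusted p = 0.0327). Fits without 1 array and further probes are not given for these genes or for DRAM1. The calcium channel subunit ORAI3 was also called, as higher with shTCF1 than in both other groups, but was well above background on 1 of 2 control, 1 of 2 shGATA3 and both shTCF1 arrays. It entered the test only through the group where it was high, so its values (4.44 and 4.82 on control arrays, 4.64 and 4.29 with shGATA3, 5.31 and 5.59 with shTCF1) are a description and its calls no support for a rise. Of 23 tested cell cycle genes that p53 lowers through p21, 0, 1 and 0 were called in the 3 comparisons in limma (2, 2 and 1 at an unadjusted p below 0.05), which is 0%, 4.35% and 0% beside 6.92%, 16.3% and 6.60% of all genes. The 1 call was the mitotic kinase PLK1, named after its value was seen, at 0.57 with shTCF1 (limma, adjusted p = 0.0297). The median of that list was -0.0237 with shGATA3, -0.0839 with shTCF1 and 0.0565 between the hairpin groups.

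In the 99 tests of 33 members in 3 comparisons, 13 calls were thus made on 8 genes, and 25 members were called in none. CCNG1 and PLK2 alone were called against control in both hairpin groups, lower in both for CCNG1 and in opposite directions for PLK2. The plot of adjusted p values by setting shows how far each call depends on single arrays and on the scaling. Of the 13 calls, 2 were made in all 6 fits that left out 1 array, both on PLK2, and 3 were made in none.

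**Figure D5:**
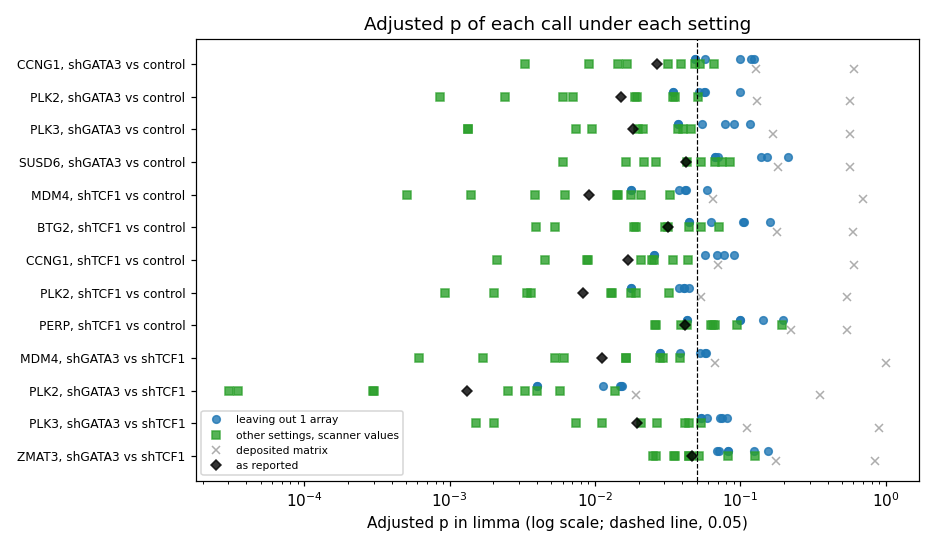
Adjusted p in limma (x axis, log scale, dashed line at 0.05) of each of the 13 calls (y axis) as reported (black diamonds), when 1 array was left out (blue circles), under other settings on the scanner values (green squares) and in the deposited matrix (grey crosses). PLK2 with shTCF1 against control and PLK2 between the hairpin groups stay left of the line in all 6 fits without 1 array, and SUSD6, PLK3 between the hairpin groups and ZMAT3 lie right of it in all 6.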

How the data were processed

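RNA of EGFP-sorted RPMI-8402 cells was measured on 6 one-colour Agilent arrays (100 ng RNA, Cy3), 2 for each of 3 groups, which the sample titles gave. Per the file headers, the intensity values the authors deposited came from Feature Extraction 10.7.1.1 (the submitters' processing notes name 9.1), with background subtracted and no scaling between arrays. Raw median intensities in the same files served an alternative. A matrix of log2 values was deposited by the authors as well, described in the methods as VSN-normalized. Its scale and centring are not stated. The column named for control replicate 1 followed the array of control replicate 2 (Spearman rho 0.998, against 0.988 for its own), that for shGATA3 replicate 1 followed the array of shGATA3 replicate 2, and those for control replicate 2 (highest rho 0.688) and shGATA3 replicate 2 (0.98) followed none closely, so the matrix was an alternative only. No sample column was unused (0).

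Control spots and 71 probes with outlier spots were left out, and spots of a probe averaged. Intensities were normalized with a VSN model written anew in R 4.3.3 (trimming quantile 0.9, 7 iterations, 5 strata), since the package was not installed. The best of several starts was kept. It replaced a fit that had not converged and had made fewer calls, with SUSD6 and ZMAT3 uncalled, and earlier counts of these data were in view at the time, so these borderline calls turn on the optimiser. Of 57176 probes, 31131 passed the filter, which asked for both arrays of 1 or more groups to be well above background, and were tested in 1 fit of limma 3.58.1 (lmFit and eBayes, two-sided, group only, 3 residual and 2.97 prior degrees of freedom). Correlations across probes were 0.993 to 0.994 within and 0.98 to 0.987 between groups. Probes were named by accession through a RefSeq table (25728 probes, 19721 genes), and a gene was represented by its brightest probe. The rule named every member with a probe, the targeted genes and every called gene of the lists of p53 regulators and of other p53 targets. One further gene under the rule is not reported here. The arrays name build hg19, and the promoter coordinates are those of GRCh38.p14. Members and lists were chosen with earlier results of these data known. The motifs AGATAA and CTTTGA and the promoters shown were chosen after values were seen. Scripts were tested on simulated data. In all, 17 alternatives were run, 16 planned and 1 added after seeing the data. Precision is limited by the number of arrays.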

Additional observations from a re-analysis of the deposited data

Results flagged for a closer look

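For 4 members the effect of the hairpins relative to the shared control arrays differed between the hairpin groups by the direct comparison in limma, with the log2 difference given as shGATA3 minus shTCF1. PLK2 differed by 1.76 (SE 0.11; adjusted p = 0.00132), with both shGATA3 arrays above and both shTCF1 arrays below control. MDM4 differed by 0.86 (SE 0.108; adjusted p = 0.0112), PLK3 by 0.64 (SE 0.095; adjusted p = 0.0194) and ZMAT3 by 0.82 (SE 0.167; adjusted p = 0.0463). The calls on PLK3 and ZMAT3 were lost in all 6 fits without 1 array, and that on MDM4 in 3 of them.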

How the results depend on the processing

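On the scanner values, each of the 13 calls kept its direction under every alternative run. In the deposited matrix CCNG1 reversed, to 1.52 with shGATA3 and 1.47 with shTCF1 against control. Without its control replicate 2 and shGATA3 replicate 2 columns CCNG1 lay at -0.87 and -0.84. The reversal was thus seen only with these columns included, and why they differ from the arrays was not tested.

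Members called with shGATA3 against control (4 as reported) were 0 in the deposited matrix, 0 in that matrix without the control replicate 2 and shGATA3 replicate 2 columns (an alternative chosen after seeing the data), 1 without a filter on dim probes and 0 to 3 when 1 array was left out. With shTCF1 against control (5 as reported) they were 8 with normexp, 0 and 0 in the 2 forms of the matrix, 9 with probes well above background on all arrays, 3 without a filter, 8 with an intensity trend, 9 with the mean of a gene's probes and 1 to 6 when 1 array was left out. Between the hairpin groups (4 as reported) they were 7 with normexp, 0 and 1 in the matrix, 2 with only the 4 arrays compared and 1 to 2 when 1 array was left out. Smaller changes went both ways. With shGATA3 against control there were 6 with normexp, 6 with an intensity trend and 5 with the mean of a gene's probes. There were 3 under 75th percentile scaling and 3 with only the 4 arrays compared. Between the hairpin groups there were 6 with a trend, 6 with that mean, 3 under 75th percentile scaling and 3 without a filter. The filter and the fit on 4 arrays change how many probes or samples enter. The cause of the other changes was not tested.

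The members' median log2 difference with shGATA3 moved from -0.0141 to 0.0456 with quantile normalization and 0.139 in the matrix, and ranged from -0.038 to 0.0442 when 1 array was left out, so its sign is not settled. With shTCF1 it moved from -0.0909 to -0.00514 with normexp and -0.18 in the matrix without the 2 columns, and ranged from -0.147 to -0.0789 without 1 array. Between the hairpin groups it moved from 0.11 to 0.0556 and 0.0769 under the same settings, and ranged from 0.0458 to 0.138 without 1 array.

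Over all probes, the number called with shGATA3 against control was 2129 as reported, 4280 with normexp, 3910 with an intensity trend, 560 without a filter and 116 in the matrix without the 2 columns. With shTCF1 it was 5274, 7728 with normexp, 2272 without a filter and 491 in that matrix, and between the hairpin groups 1925, 3281 with normexp, 3273 with a trend, 901 without a filter, 1214 with only the 4 arrays and 469 in that matrix. The whole deposited matrix gave 0 in each. Without 1 array these numbers ranged from 437 (without control replicate 1) to 1454, from 865 (without control replicate 1) to 4930 and from 701 (without shGATA3 replicate 2) to 1214, so the shares of all genes called, used as background, also depend on single arrays. Of the probes called with shGATA3 42% were higher, against 53.6% and 53% under 75th percentile and quantile scaling, and with shTCF1 42.6%, against 54.8% and 53.3%, so the balance of rises and falls depends on the scaling.

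The replicate numbers did not pair the arrays, since same-numbered arrays correlated at -0.0398, -0.00983 and 0.0488 in their deviations from group means. With the replicate block, 2, 3 and 4 members and 1328, 3845 and 1285 probes were called in the 3 comparisons. A block for slide or scan, which had been planned, was not run because there was 1 slide and 1 scan. Of the 86 uncalled member values, 12 were called under some alternative and 46 had the opposite sign under some, with 0 both opposite and called.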
